A study of Mus musculus with 10 samples.

Results

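The core circadian clock of the liver is described here through 10 genes, Arntl, Clock, Npas2, Per1, Per2, Cry1, Nr1d1, Dbp, Tef and Nfil3. They were chosen by name for their role in the clock and make up 10 of the 24052 gene symbols counted. All 10 were found in the data, and 9 of them passed the filter on low counts.

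RNA from 10 mouse livers was sequenced, with 1 library per liver, 5 from wild-type (WT) mice and 5 from mice with a liver-specific knockout of Ndrg3 (Ndrg3 LKO). The methods name male mice unless otherwise mentioned. As a check of sex, Xist had at most 2 counts and Ddx3y at least 991 counts in every liver. All mice are labelled with a C57BL/6 background and were fed ad libitum, and the methods name C57BL/6N for the backcross of the floxed line. The LKO allele has exon 4 of Ndrg3 flanked by loxP sites and was deleted by Cre under the albumin promoter, which is active in hepatocytes, and cells in which this promoter is silent keep the gene. WT littermates served as controls. The final cross was of Ndrg3 f/+; Alb-Cre with Ndrg3 f/f mice, whose offspring would each carry at least 1 floxed allele, and the genotype of each control liver beyond wild type is not given in the sources used here. The methods give an age of 8 to 10 weeks for these livers, where a figure legend of the study has 10 to 12 weeks, and they give normal chow and 12 h each of light and dark. The hour of the day at which the livers were taken is not given there, and its part in the values below was not tested. Each liver was sampled once, so a change in the mean level of a clock gene and a shift in the time of its daily peak cannot be told apart.

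The mammalian clock is a loop of transcription factors that drives daily rhythms in nearly every cell. ARNTL (BMAL1) pairs with CLOCK, or with its relative NPAS2, and binds E-boxes in the promoters of the Per and Cry genes, of Nr1d1 and of Dbp, and the PER and CRY proteins then block this pair. NR1D1 (REV-ERB alpha), a nuclear receptor that represses transcription, competes with the ROR receptors for a shared element in Arntl and other genes, while DBP and TEF activate and NFIL3 represses genes through a common element, the D-box. In the liver this network times bile acid, lipid and glucose metabolism, and feeding, glucocorticoids and body temperature can reset it.

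Short stretches of 5 promoters are shown to give the reader the elements through which these genes are known to control each other. They come from the RefSeq promoter windows of GRCm38.p6, which run from 250 bases before to 50 bases after a gene's start, and their coordinates are of that build and not of mm9, the build of the counts. Each is written 5′ to 3′ on the strand of the gene, with the match in capitals and the letters searched on both strands.
Per1, chr11:69098743-69098828, plus strand, E-box CACGTG: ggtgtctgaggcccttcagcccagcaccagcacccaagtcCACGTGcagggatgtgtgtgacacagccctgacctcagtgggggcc
Cry1, chr10:85185069-85185154, minus strand, E-box CACGTG: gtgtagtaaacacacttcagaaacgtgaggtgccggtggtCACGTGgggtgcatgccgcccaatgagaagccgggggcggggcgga
Nr1d1, chr11:98775378-98775445, minus strand, E′-box CACGTT on the opposite strand: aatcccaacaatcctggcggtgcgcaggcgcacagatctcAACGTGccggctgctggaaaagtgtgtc
Arntl, chr7:113207530-113207559, plus strand, core of the element shared by ROR and REV-ERB, TAGGTCA: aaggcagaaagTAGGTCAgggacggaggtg
Nfil3, chr13:52981040-52981091, minus strand, the same core on the opposite strand: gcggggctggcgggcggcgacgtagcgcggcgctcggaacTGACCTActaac
The matches begin 166 bases before the start in Per1, 60 before it in Cry1, 28 before it in Nr1d1 and 12 before it in Nfil3, and 31 bases past it in Arntl. Of all 32851 promoter windows, 7.15% hold CACGTG, 4.68% hold CACGTT, 6.45% hold TAGGTCA or TGGGTCA, and 1.06% hold one of the D-boxes TTATGTAA and TTACGTAA. Windows were found for 9 of the 10 genes. Both windows of Tef hold CACGTG, and Cry1 also holds CACGTT on the opposite strand, where it lies 79 bases before the start and does not overlap the E-box. None of these letters stands in the windows of Dbp, Clock or Npas2, each of which covers a short stretch around a start. A match is a description of the letters and was not measured as a binding site here.

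Each library held from 20872262 to 30450057 counts on genes. The targeted gene Ndrg3 lay between 16 and 21.9 CPM in the WT livers and between 7.08 and 9.18 CPM in the LKO livers, with no overlap. These counts cover the whole gene and not the deleted exon 4 alone. CPM here are counts relative to the size of the library after TMM, a scaling of library sizes that is robust to a few highly expressed genes. LKO replicate 5 stood apart from the other LKO livers. On the first principal component, which held 68.7% of the variance, it lay at 14.1, LKO replicates 1 to 4 lay between 51.1 and 56.6, and the WT livers lay between -49.9 and -43.1. The 20 most abundant genes took 26.6% of its counts, against 16.3 to 17.3% in the other LKO livers and 26.2 to 28% in WT. Its Ndrg3 level was that of the LKO group at 8.26 CPM. For the metabolome and RNA sequencing, the study's figure legends give n = 5 for WT and n = 4 for LKO. Which LKO liver is absent there is not stated. Results below are given with all 10 livers, and without LKO replicate 5 where this liver moved a call or stood apart.

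In the LKO livers, transcripts of Nr1d1, Dbp and Per1 were higher and those of Cry1 and Nfil3 were lower than in WT. The rise was 9.7-fold for Nr1d1, 5.29-fold for Dbp and 2.34-fold for Per1, and the fall was 2.02-fold for Cry1 and 1.66-fold for Nfil3. The activators Arntl and Clock, the repressor Per2 and the D-box factor Tef did not pass the test with all 10 livers. Thus 5 of the 9 clock genes tested were called by edgeR's quasi-likelihood test at a Benjamini-Hochberg adjusted p under 0.05, 3 of them higher and 2 lower. Across the 11208 genes tested, 48.6% were called, 25.6% higher and 23% lower in LKO, so the number of clock genes called was close to that of genes at large. The median log2 fold change of the 9 genes was -0.01, beside 0.03 over all genes tested, and their median absolute log2 fold change was 0.728, beside 0.484. Since whole livers were measured, fewer cells of a type and less RNA per cell cannot be told apart.

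Part of these calls depended on the scaling of the libraries. With library size alone in place of TMM, the median over all genes moved from 0.03 to 0.56 on the log2 scale, and the calls over all genes went from 2865 higher and 2578 lower to 5834 higher and 1005 lower. On that scale Nr1d1, Dbp, Per1 and Clock were called higher and no clock gene was called lower, beside 61% of all genes called, 52.1% higher and 8.97% lower. Cry1 was then at -0.49 (edgeR adjusted p = 0.0577) and Nfil3 at -0.19 (edgeR adjusted p = 0.469). Relative to the median of all genes the values hardly moved, from -1.04 to -1.05 for Cry1, from -0.76 to -0.75 for Nfil3 and from 3.25 to 3.33 for Nr1d1. A change of scaling shifts all genes by nearly the same amount, so this likeness is built in. It does not show which scaling is right, nor whether Cry1 and Nfil3 fell.

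**Figure D1:**
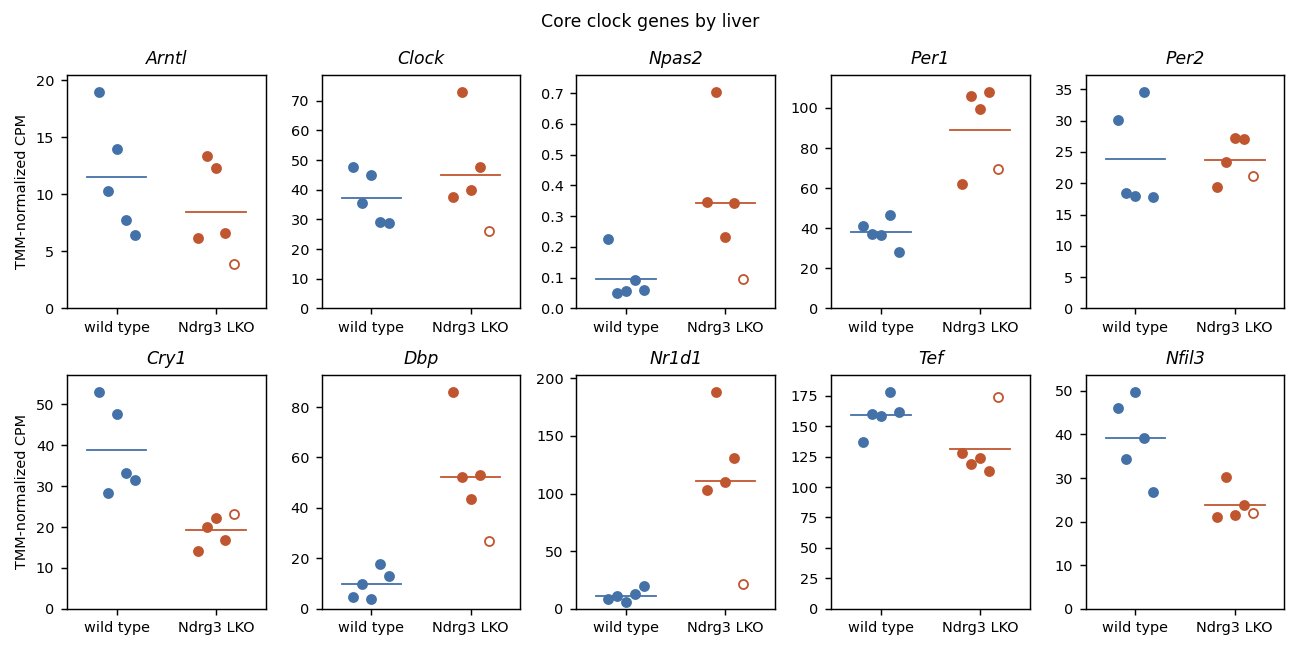
TMM-normalized CPM of the 10 clock genes in each liver, on a linear axis that starts at 0 for each gene, with WT in blue and Ndrg3 LKO in orange. Each point is 1 liver, the open circle is LKO replicate 5 and the lines are group means. For Per1, Dbp and Nr1d1 every LKO liver lies above every WT liver, and for Cry1 every LKO liver lies below every WT liver.

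Arntl (chr7:120350979-120457636 of mm9, plus strand) encodes the factor that pairs with CLOCK or NPAS2. Its TMM-normalized CPM were 19, 10.3, 14, 7.73 and 6.44 in WT replicates 1 to 5, and 6.22, 13.4, 12.3, 6.62 and 3.92 in LKO replicates 1 to 5. The groups overlapped over most of their range, with means of 11.5 ± 5.09 and 8.5 ± 4.13 (SD, n = 5 each). The log2 fold change of LKO over WT was -0.43 with a standard error (SE) of 0.36, a 95% interval from -1.22 to 0.37 and an edgeR adjusted p of 0.349, an interval that holds both a fall and a rise. With library size alone its sign turned, to 0.17.

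Clock (chr5:76639992-76733817, minus strand) encodes the usual partner of ARNTL. It was at 47.8, 35.6, 45.1, 29.1 and 28.8 CPM in WT and at 37.5, 73, 40, 47.7 and 26.2 CPM in LKO. LKO replicate 2 was the highest and LKO replicate 5 the lowest of all 10 livers, and the other LKO livers lay within the WT range. The log2 fold change was 0.27 ± 0.25 (SE, 95% interval -0.27 to 0.81, edgeR adjusted p = 0.391), and with library size alone it was 0.85 (edgeR adjusted p = 0.0265). In WT the livers ranked in the same order for Arntl and Clock, with replicate 1 highest, then 3, 2, 4 and 5.

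Npas2 (chr1:39250576-39420079, plus strand) encodes the relative of CLOCK that can take its place. Its counts were 4, 1, 1, 2 and 1 in the WT livers and 12, 29, 9, 12 and 2 in the LKO livers. Without the TMM scaling, 3 counts correspond to between 0.0985 and 0.144 CPM. LKO replicates 1 to 4 were above every WT liver, while LKO replicate 5 fell among them. It did not reach 1 CPM in any liver and was left out of the main test. In a fit without the filter its log2 fold change was 1.81 (edgeR adjusted p = 0.0328), a call that was lost in 8 of 12 alternatives, where the adjusted p ranged from 0.00656 to 0.0967. At these counts the size of the difference is uncertain.

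Per1 (chr11:68908719-68923462, plus strand) encodes a repressor of the ARNTL pairs and carries the E-box printed above. It was at 41.3, 37.3, 36.8, 46.5 and 28 CPM in WT and at 62, 106, 99.4, 108 and 69.3 CPM in LKO. Every LKO liver was above every WT liver, including LKO replicate 5. The WT mean was 38 ± 6.83 and the LKO mean 89 ± 21.7 (SD, n = 5). This gave a log2 fold change of 1.23 ± 0.19 (SE, edgeR adjusted p = 0.000387).

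Per2 (chr1:93312561-93355907, minus strand) encodes a second repressor of the same family. It was at 30.1, 18.5, 18, 34.6 and 17.8 CPM in WT and at 19.4, 23.4, 27.2, 27.1 and 21.2 CPM in LKO. All LKO values lay inside the WT range, with WT replicates 1 and 4 highest of all. Its log2 fold change was -0.01 ± 0.21 (SE, 95% interval -0.46 to 0.44, edgeR adjusted p = 0.976), and 1.03% of the genes tested had a smaller absolute change, although its sign turned under several settings and its value was 0.52 with library size alone. The interval of Per1, from 0.81 to 1.64, did not overlap that of Per2, and the difference between the genes was not tested.

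Cry1 (chr10:84594447-84647799, minus strand) encodes a cryptochrome, the partner of the PER proteins and a strong repressor of the loop. It was at 53, 28.4, 47.7, 33.3 and 31.4 CPM in WT and at 14.1, 19.9, 22.1, 16.9 and 23.1 CPM in LKO. The highest LKO liver, replicate 5, was below the lowest WT liver, replicate 2. The means were 38.8 ± 10.9 and 19.2 ± 3.72 (SD, n = 5), the log2 fold change was -1.01 ± 0.20 (SE, edgeR adjusted p = 0.00178), and without LKO replicate 5 it was -1.10 (edgeR adjusted p = 0.00097). Its promoter holds the same E-box letters as that of Per1, while the levels of the genes differed between the groups in opposite directions.

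Nr1d1 (chr11:98629246-98636647, minus strand) encodes REV-ERB alpha, the repressor that acts on Arntl, and showed the largest absolute log2 fold change of the 9 clock genes tested. It was at 8.6, 10.8, 5.91, 12.4 and 19.4 CPM in WT and at 103, 188, 110, 131 and 21.5 CPM in LKO. LKO replicates 1 to 4 were far above every WT liver, and LKO replicate 5 lay just above WT replicate 5. The log2 fold change was 3.28 ± 0.49 (SE, 95% interval 2.21 to 4.34, edgeR adjusted p = 0.000302), and without LKO replicate 5 it was 3.53 ± 0.31 (SE, edgeR adjusted p = 3.28e-06). The group means were 11.4 ± 5.1 and 111 ± 60 CPM (SD, n = 5). With all 10 livers 98.2% of the genes tested had a smaller absolute change, and the rise ranked 87 among the 11208 genes. The gene overlaps Thra, the thyroid hormone receptor alpha gene, on the opposite strand, and how strand was treated in the counting is not given in the sources used here. Thra lay between 1.79 and 6.97 CPM over all 10 livers, and was below Nr1d1 in each of them. Its log2 fold change was of the same sign as that of Nr1d1, at 0.61 (edgeR adjusted p = 0.17) with all livers and 0.78 (edgeR adjusted p = 0.047) without LKO replicate 5.

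Dbp (chr7:52960458-52965525, plus strand) encodes an activator of D-box genes and is one of the most strongly rhythmic transcripts of the liver. It was at 4.83, 9.88, 3.9, 17.7 and 13 CPM in WT and at 85.9, 52.1, 43.7, 53.1 and 26.7 CPM in LKO. Every LKO liver was above every WT liver, with LKO replicate 5 the nearest to them. The WT mean was 9.87 ± 5.75 and the LKO mean 52.3 ± 21.6 (SD, n = 5). On the log2 scale the difference was 2.40 ± 0.42 (SE, edgeR adjusted p = 0.000772). Sphk2, a sphingosine kinase gene on the opposite strand, was lower in LKO, with a log2 fold change of -1.37 ± 0.25 (SE, edgeR adjusted p = 0.00106), and so moved the other way from Dbp.

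Tef (chr15:81632851-81657291, plus strand) encodes a close relative of DBP. It was at 137, 160, 158, 178 and 162 CPM in WT and at 128, 119, 124, 113 and 174 CPM in LKO. LKO replicates 1 to 4 were below every WT liver, and LKO replicate 5 was above 4 of the 5. With all 10 livers the log2 fold change was -0.27 ± 0.14 (SE, 95% interval -0.58 to 0.04, edgeR adjusted p = 0.129), without LKO replicate 5 it was -0.40 ± 0.11 (SE, edgeR adjusted p = 0.0104), and with library size alone its sign turned, to 0.22. The call of Tef thus rested on LKO replicate 5. Without this liver 6 clock genes were called, 3 in each direction, beside 55.6% of all genes tested, 28.4% higher and 27.2% lower. The gene overlaps Gm17597 on the opposite strand.

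Nfil3 (chr13:53062578-53076442, minus strand) encodes the repressor that binds the same D-boxes as DBP and TEF. It was at 46, 34.4, 49.7, 39.2 and 26.9 CPM in WT and at 21, 30.3, 21.5, 23.7 and 22 CPM in LKO. All 5 LKO livers were below the WT mean of 39.3 ± 9.1 (SD, n = 5), and the groups overlapped through LKO replicate 2 and WT replicate 5. The log2 fold change was -0.73 ± 0.17 (SE, edgeR adjusted p = 0.00506), and it was -0.71 (edgeR adjusted p = 0.00653) without LKO replicate 5. Among the 9 clock genes tested, the groups did not overlap for 4, Per1, Cry1, Dbp and Nr1d1, where 31.5% of all genes tested did not overlap, 15.6% with LKO above and 15.9% with LKO below WT. Without LKO replicate 5, Tef joined these genes, beside 44.3% of all genes tested.

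**Figure D2:**
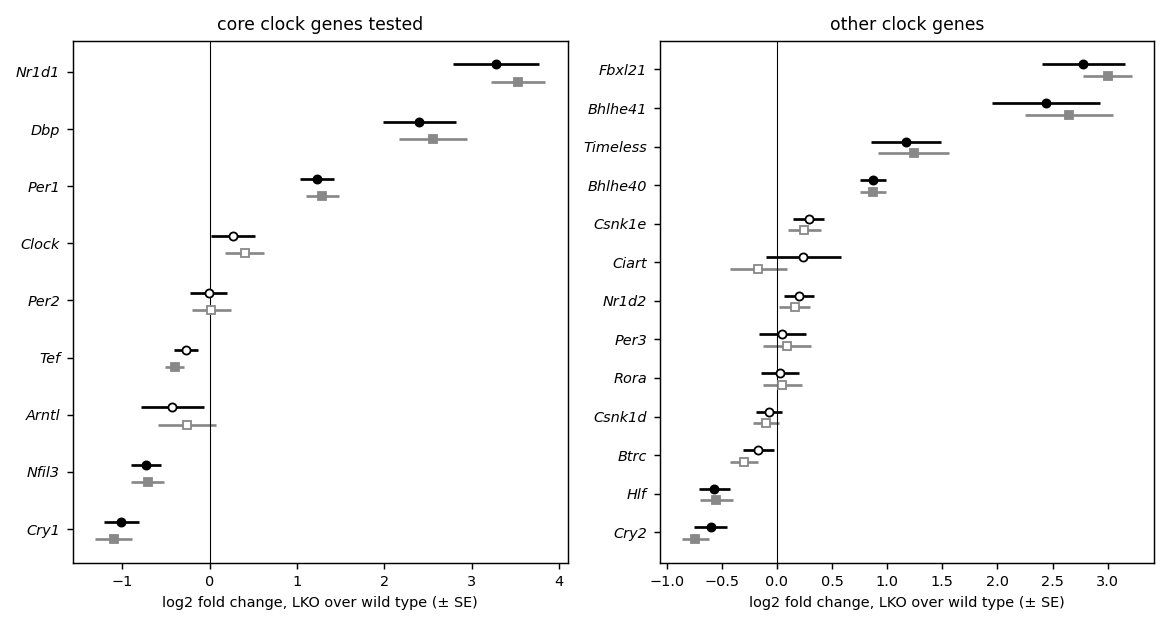
Log2 fold change of LKO over WT on the TMM scale with its SE for the 9 core clock genes tested (left) and for 13 of the 15 other genes of the clock tested (right). Black circles are fits of all 10 livers, grey squares are fits without LKO replicate 5, and filled symbols passed an edgeR adjusted p of 0.05. Nr1d1 at 3.28 and Dbp at 2.40 lead the left panel and Cry1 at -1.01 closes it, and Tef is filled only without LKO replicate 5. With library size alone in place of TMM the signs of Arntl, Per2 and Tef turn.

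Ratios of 2 genes within a liver do not depend on how libraries are scaled. They were computed from counts per base of exon for pairs with opposed, exchangeable or shared roles. The length of a gene is that of all its annotated exons merged, which may differ from that of the RNA present. The side of 0 on which a ratio falls depends on these lengths, while the difference between the groups does not. The log2 ratio of Arntl to its repressor Nr1d1 was 1.24, 0.03, 1.34, -0.59 and -1.50 in the WT livers and -3.95, -3.71, -3.06, -4.22 and -2.36 in the LKO livers. The groups did not overlap, and their means of 0.10 ± 1.21 and -3.46 ± 0.75 (SD, n = 5) were 3.57 apart on the log2 scale, with LKO lower. WT livers lay on both sides of equal Arntl and Nr1d1 counts per base, 3 above and 2 below, and all 5 LKO livers had an excess of Nr1d1.

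The log2 ratio of the D-box repressor Nfil3 to the D-box activator Dbp was 3.79, 2.34, 4.21, 1.69 and 1.59 in WT and -1.50, -0.24, -0.48, -0.62 and 0.26 in LKO. Every WT liver had more Nfil3 than Dbp per base, and 4 of the 5 LKO livers had less. The group means were 2.72 ± 1.21 and -0.52 ± 0.64 (SD, n = 5). For Cry1 to Per2 the group means were 1.68 ± 0.53 and 0.65 ± 0.30, and the groups overlapped through WT replicate 4 and LKO replicate 5. For Npas2 to Clock they were -7.94 ± 0.81 and -6.34 ± 0.58, with overlap, so that Npas2 was by far the rarer of these in both groups. These ratios are built from the same counts as the levels above and are given as a description, with no test.

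**Figure D3:**
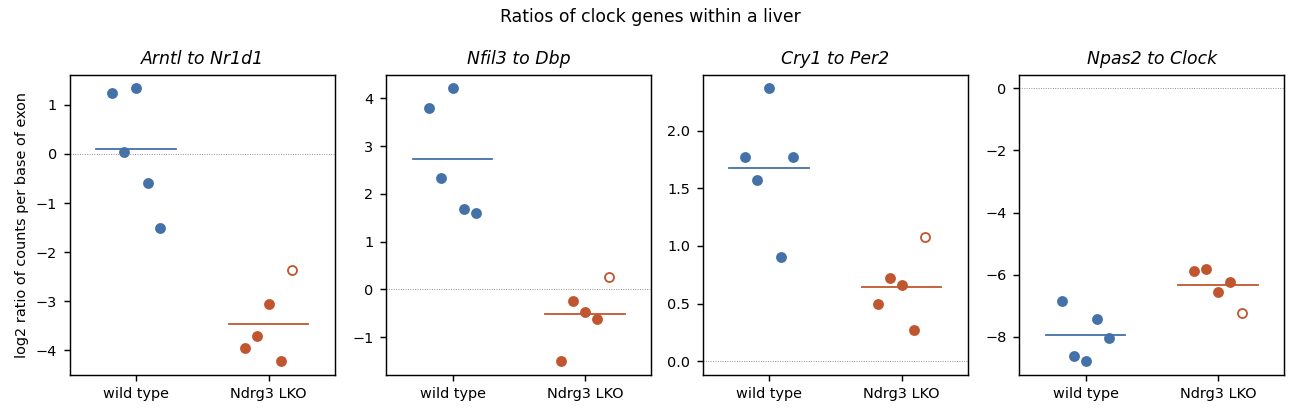
Log2 ratio of counts per base of exon for 4 pairs of clock genes in each liver, with WT in blue, Ndrg3 LKO in orange, an open circle for LKO replicate 5 and lines at the group means. The vertical axes differ between panels, and the dotted line at 0 marks equal counts per base. Arntl to Nr1d1 and Nfil3 to Dbp leave no overlap between the groups, while Cry1 to Per2 and Npas2 to Clock overlap.

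Levels of different genes were compared as CPM per kb of annotated exon, so the order of genes depends on the annotated lengths. In WT the order from high to low was Tef at 20.2, Nfil3 at 19.4, Cry1 at 12.9, Per1 at 6.74, Clock at 4.22, Per2 at 4.07, Arntl at 3.93, Nr1d1 at 3.66, Dbp at 3.35 and Npas2 at 0.0201. Neighbours in this order overlapped between livers, except Cry1 with Per1 and Dbp with Npas2. In LKO the order was Nr1d1 at 35.4, Dbp at 17.8, Tef at 16.7, Per1 at 15.8, Nfil3 at 11.7, Cry1 at 6.38, Clock at 5.08, Per2 at 4.05, Arntl at 2.9 and Npas2 at 0.0718. There, only Nfil3 with Cry1 and Arntl with Npas2 did not overlap. Nr1d1 and Dbp, which were eighth and ninth in WT, thus led the LKO order by mean level, though Nr1d1 ranged from 6.88 to 60.1 per kb over the LKO livers.

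**Figure D4:**
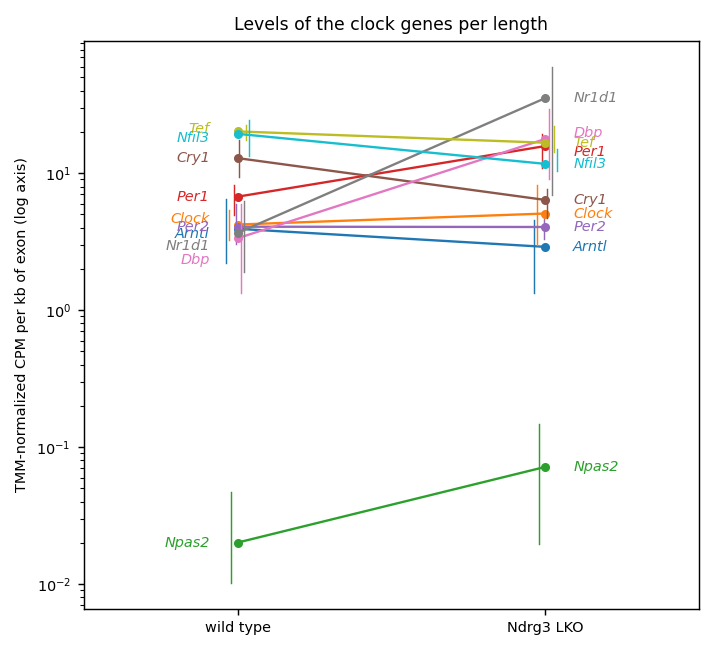
Mean TMM-normalized CPM per kb of exon of the 10 clock genes in WT and Ndrg3 LKO livers, on a log axis. Thin vertical lines span the lowest to the highest liver of a group. Nr1d1 goes from 3.66 to 35.4 and Dbp from 3.35 to 17.8, while Npas2 stays under 0.2 in every liver.

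Livers of the same group also differed from each other in these genes. The highest WT liver exceeded the lowest 4.54-fold for Dbp, 3.29-fold for Nr1d1 and 2.95-fold for Arntl, against a median of 1.51-fold over all genes tested, and 98.2%, 95.6% and 94.2% of genes had a smaller spread. Tef, at 1.3-fold, varied less among the WT livers than most genes. The order of the WT livers for Nr1d1, with replicate 5 highest, then 4, 2, 1 and 3, put the livers with the least Arntl at the top. Within the LKO group the spread was 8.75-fold for Nr1d1, 3.42-fold for Arntl and 3.22-fold for Dbp, against a median of 1.75-fold over all genes, and LKO replicate 5 had the lowest value of all 3 genes. Without this liver the spread was 1.83-fold for Nr1d1, 2.15-fold for Arntl and 1.97-fold for Dbp, against a median of 1.52-fold.

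The genes most like Arntl were sought over the 9 livers without LKO replicate 5, by Pearson's r of deviations from the mean of the own group. These were Wwtr1 at 0.967, Sfxn2 at 0.966 and Cdo1 at 0.952, and over all 10 livers the values were 0.804, 0.506 and 0.348. For Dbp they were Tcf25 at 0.954, Mcph1 at 0.953 and Stard4 at 0.93, and over all 10 livers 0.54, 0.443 and 0.665. Arntl and Dbp themselves had an r of -0.809 over 9 livers and of -0.353 over 10. These values describe a few livers that share library depth and make-up, were the highest among the 11208 genes tested, and mostly dropped once LKO replicate 5 was included.

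Of 16 further genes of the clock, 15 were counted and tested and 7 were called, 4 higher and 3 lower, or 46.7% beside 48.6% of all genes. Among the genes that were higher, Bhlhe40 (DEC1), a repressor that competes for E-boxes, went from 74.8 ± 7.94 to 136 ± 11.6 CPM (SD, n = 5), with a log2 fold change of 0.87 ± 0.12 (SE, edgeR adjusted p = 0.00017). Its relative Bhlhe41 (DEC2) was rarer, at 1.13 ± 0.433 CPM in WT and 6.11 ± 3.8 CPM in LKO, with a log2 fold change of 2.44 ± 0.49 (SE, edgeR adjusted p = 0.00178). Fbxl21, whose product binds the CRY proteins and controls their stability, had a log2 fold change of 2.78 ± 0.38 (SE, edgeR adjusted p = 0.000193) from 1.39 CPM in WT, and LKO replicate 5 was lowest of the LKO livers at 2.64 CPM. Timeless, named for a fly clock gene and known in mammals for DNA replication, had a log2 fold change of 1.17 ± 0.32 (SE, edgeR adjusted p = 0.0103).

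Among the genes that were lower, Cry2, the paralog of Cry1, had a log2 fold change of -0.60 ± 0.15 (SE, edgeR adjusted p = 0.00635). Hlf, the relative of DBP and TEF, was at -0.57 ± 0.14 (SE, edgeR adjusted p = 0.00642). Both Cry2 and Hlf lost the call with library size alone, at -0.11 and -0.03.

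Paralogs of the clock genes did not all pass the test. Per3 was at 15.3 ± 3.95 CPM in WT and 15.8 ± 4.38 CPM in LKO (SD, n = 5), with a log2 fold change of 0.05 ± 0.21 (SE, edgeR adjusted p = 0.873). Nr1d2 (REV-ERB beta), the paralog of Nr1d1, had a log2 fold change of 0.20 ± 0.14 (SE, edgeR adjusted p = 0.243), and with library size alone it was 0.72 (edgeR adjusted p = 0.00216). Per3 and Nr1d2 were picked out with their values in view, and their differences from Per1 and Nr1d1 were not tested. Other genes not called were Rora, Ciart, Csnk1d, Csnk1e and Btrc, whose absolute log2 fold changes reached at most 0.29.

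Of 13 liver genes known to follow the clock, 12 were tested and 7 were called, 1 higher and 6 lower, or 58.3% beside 48.6% of all genes. Their median log2 fold change was -0.42. Ccrn4l (Nocturnin), a gene with a strong night-time peak in the liver, was higher, from 71 ± 14.8 to 170 ± 36.2 CPM (SD, n = 5), with a log2 fold change of 1.26 ± 0.18 (SE, edgeR adjusted p = 0.000239). Elovl3, a fatty acid elongase with a known daily rhythm in the liver, was lower, from a WT range of 389 to 1140 CPM to an LKO range of 2.83 to 45.3 CPM, at a log2 fold change of -5.08 ± 0.80 (SE, edgeR adjusted p = 0.000426). Rgs16, a regulator of G protein signalling that responds to feeding, fell from between 17.8 and 102 CPM to between 1.13 and 3.06 CPM, at -4.80 ± 0.52 (SE, edgeR adjusted p = 3.95e-05).

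For both genes LKO replicate 5, at 2.83 CPM of Elovl3 and 1.27 CPM of Rgs16, lay within or below the range of the other LKO livers. Alas1, the rate-limiting enzyme of heme synthesis, had a log2 fold change of -1.67 ± 0.29 (SE, edgeR adjusted p = 0.000782). Ppara, the nuclear receptor that drives fatty acid oxidation, was at -1.50 ± 0.17 (SE, edgeR adjusted p = 4.82e-05). The others that were lower were Nampt and Por, and Wee1, Usp2, Lpin1, Cdkn1a and Coq10b did not pass the test.

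**Figure D5:**
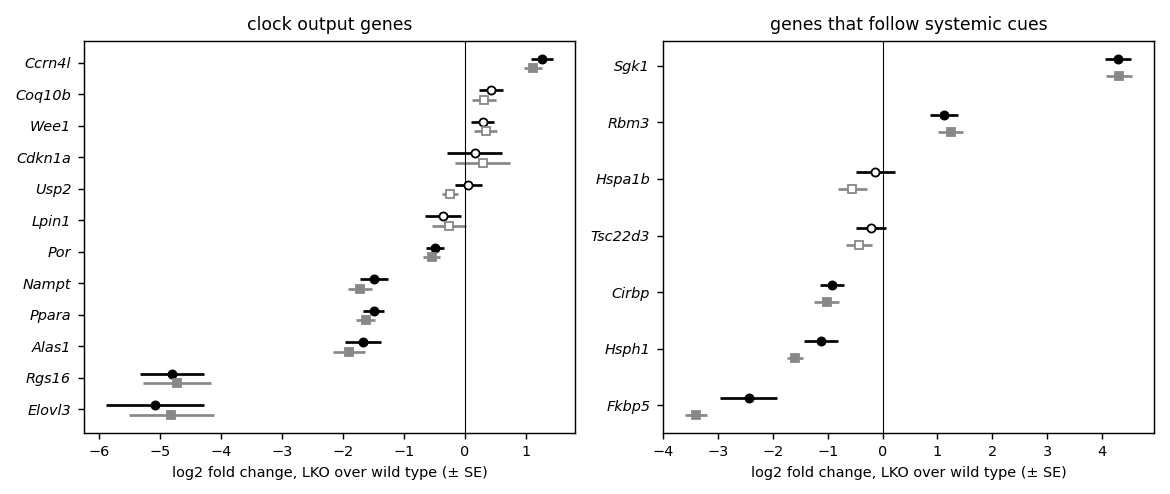
Log2 fold change of LKO over WT on the TMM scale with its SE for 12 liver genes known to follow the clock (left) and for 7 genes known to follow glucocorticoids or body temperature (right). Symbols are as in the plot of the clock genes, with black circles for all 10 livers, grey squares without LKO replicate 5 and filled symbols for an edgeR adjusted p under 0.05. Elovl3 at -5.08 and Rgs16 at -4.80 lie lowest on the left, and Sgk1 at 4.29 lies highest on the right.

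Genes that follow the cues known to reset the liver clock were counted in the same livers. Of 7 such genes, 5 were called, 2 higher and 3 lower, or 71.4% beside 48.6% of all genes. Sgk1, a kinase gene induced by glucocorticoids and by other signals, was at 13 ± 1.8 CPM in WT and 255 ± 84.6 CPM in LKO (SD, n = 5), at a log2 fold change of 4.29 ± 0.24 (SE, edgeR adjusted p = 8.98e-07). Fkbp5, also induced by glucocorticoids, went the other way, at -2.44 ± 0.52 (SE, edgeR adjusted p = 0.00258), and at -3.40 without LKO replicate 5, which at 180 CPM was the highest LKO liver. Tsc22d3, another gene of this kind, had a log2 fold change of -0.21 and did not pass the test.

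Of the genes that follow temperature, Rbm3, which is induced by cold, was at 1.12 ± 0.25 (SE, edgeR adjusted p = 0.00371), while Cirbp, likewise induced by cold, was at -0.93 ± 0.22 (SE, edgeR adjusted p = 0.00439). The call of Cirbp was lost with library size alone, at -0.43. Hsph1, a heat shock gene, was at -1.13 ± 0.31 (SE, edgeR adjusted p = 0.01), and LKO replicate 5, at 66.5 CPM, was within its WT range of 54.6 to 88.2 CPM. Hspa1b did not pass the test. Within each cue the genes called lay on both sides of 0.

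Markers of the cell types of the liver moved with the groups, and their part in the clock values was not tested. Their counts stand beside 25.6% of all genes called higher and 23% called lower. Of 7 hepatocyte markers 5 were lower and none was higher, and their summed level was 128000 to 171000 CPM in WT, 33900 to 40400 CPM in LKO replicates 1 to 4 and 148000 CPM in LKO replicate 5. In that liver 4 of the 7 hepatocyte markers lay in the WT range, Apob and Apoa1 below it and Serpina1a above it. In the same liver Per1, Dbp and Nr1d1 lay above every WT liver, and Arntl, Clock, Cry1 and Nfil3 lay below every WT liver. Dbp and Nr1d1 were lower there than in the other LKO livers, and Npas2, Per2 and Tef lay within the WT range. All 5 Kupffer cell markers counted were higher, with sums of 66.5 to 172 CPM in WT and 118 to 360 CPM in LKO, and 4 of 5 endothelial markers were higher, with sums of 44.7 to 58 and 85.1 to 126 CPM. For stellate cells 2 of 4 were higher, with sums of 103 to 166 and 184 to 267 CPM, and for cholangiocytes 1 of 5 was higher and 1 lower, with sums of 38.5 to 71.7 and 50.9 to 220 CPM. The 5 lymphocyte and 4 recruited myeloid markers all lay under the filter, with sums of at most 5.57 and 12.8 CPM, both in LKO replicate 5. Of these, Ms4a1 and Ly6c2 were among those with 0 counts in at least 1 WT liver.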

How the data were processed

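RNA sequencing of 10 livers was used, 5 WT and 5 Ndrg3 LKO, grouped by their labels. The authors mapped stranded, paired reads of 100 bases to mm9 with STAR and deposited raw counts per gene symbol; the files are named as CPM but hold whole numbers with unequal totals. The submitters' processing notes list Trim Galore 0.6.4, STAR 2.7.3a and Cufflinks 2.2.1, and the annotation and strand setting are not given in the sources used here. Of 24052 symbols, 6306 had 0 counts in every liver and 25 had been turned into dates. Depth sets a floor of 3 counts, or 0.0985 to 0.144 CPM without the TMM scaling, which covers counting error only. 1 file had doubled tabs, which were read as single ones.

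Genes that reached 1 CPM in 5 or more livers (4 where a liver was left out) were fitted with edgeR 4.0.16 in R 4.3.3, using TMM, glmQLFit and glmQLFTest with Benjamini-Hochberg adjustment over all genes tested and a threshold of 0.05. The SE is the absolute log2 fold change over the square root of F, and 95% intervals use the t quantile of each gene's degrees of freedom. Locations and exon lengths come from GENCODE on NCBIM37 (mm9), which held 20945 of the symbols, and promoters from RefSeq on GRCm38.p6. Alternatives were DESeq2 1.42.0, limma 3.58.1 on log2(CPM + 1), other scalings and filters, a replicate block and leaving out each liver. Genes named are the 10 members, from each list up to 4 called genes with the largest absolute log2 fold change per direction, the 3 genes most like Arntl and Dbp, and Ndrg3. The members and lists were chosen with earlier results of these data known, so no list gives independent support. Some results on listed genes are not reported here. Tests were checked on simulated counts in which few genes were changed, in equal numbers up and down. That check does not cover the wide change and the shift between scalings seen here. No pair of libraries within a group agreed within counting noise. Fold changes and p-values of the authors were not used.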

Additional observations from a re-analysis of the deposited data

Results flagged for a closer look

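In 2 of the values by liver, 1 sample lay far from the others of its group. Chance alone picks out about 1 in 20 groups in this way. Npas2 in WT replicate 1 was at 0.225 CPM, where the next WT liver was at 0.092 CPM, and the gap took up 0.755 of the range of the group. This value rests on 4 counts beside 1 or 2 in the other WT livers. Tef in LKO replicate 5 was at 174 CPM, where the next LKO liver was at 128 CPM, and the gap took up 0.749 of the range. This liver is the one that stood apart in the whole transcriptome, and without it Tef passed the test at a log2 fold change of -0.40 (edgeR adjusted p = 0.0104).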

How the results depend on the processing

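The number of genes called stayed within 1.5 times 5443 under every alternative tried, and was between 4703 and 6360 when a liver was left out. A like number need not mean the same genes. With library size alone 6839 genes were called, and 3870 of them were shared with the main fit. The counts of clock genes called (5 to 6), of other clock genes (7 in each), of clock outputs (6 to 7) and of cue genes (5 in each) are ranges over leaving out each liver. The genes behind a count could differ, since clock outputs went from 1 higher and 6 lower to 2 higher and 5 lower without LKO replicate 4, and to 1 higher and 5 lower without LKO replicate 1. Per1, Dbp, Nr1d1 and Sgk1 kept their direction and their call in all settings, and Cry1 and Nfil3 lost theirs only with library size alone. Values near 0 changed sign. With library size alone Arntl was at 0.17, Per2 at 0.52 and Tef at 0.22. Per2 was at 0.043 with a mean CPM of at least 5, at 0.037 with limma and between -0.11 and 0.16 when a liver was left out, and Per3 was between -0.13 and 0.18. Npas2 without a filter stayed between 1.35 and 2.33 when a liver was left out. Its call was lost, with an edgeR adjusted p above 0.05, without WT replicate 2, 3, 4 or 5 or LKO replicate 1, 2 or 4.

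The labels number both groups from 1 to 5. With the mean of each group taken out, r between WT and LKO livers sharing a number ran from -0.357 to 0.0363. LKO replicate 5 stood apart and weighs on the LKO mean, so these values cannot decide whether the numbers pair the livers. A fit with this number as a block called 4412 genes, 4332 of them shared with the fit without the block, Per2 was at 0.039 and Npas2 at 1.74 (edgeR adjusted p = 0.0714).

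With 5 livers a group, the intervals of Arntl and Clock leave changes of over 1.5-fold possible, and Npas2 was limited by its few counts.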
